A study of Mus musculus with 12 samples.

Results

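The genes described here encode ligands and receptors of the interleukin-1 (IL-1) and tumor necrosis factor (TNF) families. They were chosen by name from a list of 9, and 8 of the 9 were present by symbol among the 10697 genes of the deposited table: the ligands *Tnf* and *Il18*, the IL-1 receptor antagonist *Il1rn*, and the receptor chains *Tnfrsf1a*, *Tnfrsf1b*, *Il1r1*, *Il1rap* and *Il1rl1*. *Il1b* was not analysed here. The cells were primary mouse adult fibroblasts (MAFs), WT cells that grew out of cut biopsy pieces of C57BL6/j mice in high-glucose medium with fetal bovine serum. The 6 libraries of the Thymol group came from cells given 100 µM thymol, a phenolic terpenoid of thyme and oregano, for 24 h, and the 6 of the DMSO group from cells given an equal volume of the solvent alone. The RNA was sequenced with the QuantSeq 3′ kit, whose reads come from the 3′ end of polyadenylated transcripts. The sources used here state neither the tissue of the biopsies, nor the age of the mice, nor whether the libraries of a group came from separate animals or cultures, so p-values measure the spread between libraries, which may be technical.

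IL-1β and IL-1α bind IL-1 receptor 1 (*Il1r1*), which then recruits the accessory chain encoded by *Il1rap* and signals through MyD88 and IRAK kinases to NF-κB. The product of *Il1rn* occupies the same receptor without recruiting the accessory chain and so blocks it. *Il1rl1* encodes ST2, the receptor of IL-33, which shares the accessory chain and is made by cultured fibroblasts partly as a secreted form without a membrane anchor. IL-18 is a further IL-1 family cytokine that caspase-1 cuts into its active form. TNF acts through TNFR1 (*Tnfrsf1a*), found on most cells and able to signal to both survival and death, and through TNFR2 (*Tnfrsf1b*), which is most abundant on immune cells. Macrophages are a main source of TNF, whereas fibroblasts are responsive to both cytokines and answer them with chemokines, IL-6 and matrix-degrading enzymes.

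Reads per gene were recovered from the equal steps between the deposited low values, and they numbered 5435985 to 9049796 per library in the Thymol group and 6240828 to 8064382 in the DMSO group. Markers of macrophages and of fibroblasts were both abundant in these cultures. Of 24 macrophage markers 23 were measured. Their summed level was 21548 to 23522 CPM (reads scaled to the library total) with DMSO and 21739 to 25755 CPM with thymol. Past the threshold used below, 3 of the 23 were higher and 2 lower with thymol, against 0.654% and 1.57% of all genes. Of 20 fibroblast markers 18 were measured, with a summed level of 11669 to 12810 CPM with DMSO and 10524 to 11149 CPM with thymol. Of the 18, 2 were lower, against the same 1.57% of all genes. Averaged over genes, macrophage markers stood at 8.41 ± 0.033 log2 CPM in controls and 8.39 ± 0.050 after thymol (SD over 6 libraries, exact two-sided permutation test, p = 0.320). That mean pools markers called in opposite directions. Fibroblast markers stood at 8.02 ± 0.038 and 7.91 ± 0.035 log2 CPM (SD over 6 libraries), with p = 0.00216 by the same exact test, which is the smallest value this design allows. The part of these shifts in the results below was not tested, and in bulk RNA fewer cells of a type and less RNA per cell cannot be told apart. Of 9 mast cell markers, which matter because mast cells also make ST2, 1 (*Gata2*) had a row in the table, as had 2 of 8 neutrophil markers and 0 of the 9 T or NK cell and 7 dendritic cell markers. Of 7 skeletal muscle markers 2 were measured, *Des* and *Acta1*, with a summed level of 133 to 160 CPM with DMSO and 93.2 to 125 CPM with thymol, which did not overlap. Of these 2 markers 1 was called lower, against 1.57% of all genes. The part of this difference in the results was not tested either.

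*Il1rn* and *Tnf* had the smallest p-values among the 8 genes, and the 250 bases before their annotated start sites are shown for that reason (RefSeq, GRCm38.p6). The *Il1rn* sequence is that of the start site farthest upstream of 3 listed, chr2:24336610-24336859 on the plus strand. The *Tnf* sequence is chr17:35202008-35202257 on the minus strand. Both are written 5′ to 3′, and capitals mark the AP-1 motif TGANTCA.
Il1rn: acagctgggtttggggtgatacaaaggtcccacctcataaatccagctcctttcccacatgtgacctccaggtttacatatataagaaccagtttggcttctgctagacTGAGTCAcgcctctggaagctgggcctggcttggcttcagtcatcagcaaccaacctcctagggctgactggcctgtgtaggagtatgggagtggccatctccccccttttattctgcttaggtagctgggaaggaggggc
Tnf: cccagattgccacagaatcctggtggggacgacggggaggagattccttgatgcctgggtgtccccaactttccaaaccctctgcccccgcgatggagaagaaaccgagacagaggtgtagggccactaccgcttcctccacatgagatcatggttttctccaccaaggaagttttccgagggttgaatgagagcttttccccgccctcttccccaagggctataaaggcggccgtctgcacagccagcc
All 8 genes matched the RefSeq promoter table, with 12 windows of 250 bases before and 50 bases after a start site, and both strands were searched for 3 motifs. AP-1 was found in 1 of the 12 windows, that of *Il1rn*, with its first base at position -141 from the start site, against 7.81% of all 32851 promoter windows of the same length. The κB consensus, the site bound by NF-κB, was found in 1 window, at the second start site of *Il1r1*, against 4.51% of all windows. The C/EBP motif TTNNGCAA was found in 2 windows, 1 each of *Il1r1* and *Il1rl1*, against 10.8% of all. None of these matches overlapped another. No match was found in the windows of *Tnf*, *Tnfrsf1a*, *Tnfrsf1b*, *Il1rap* or *Il18*, which says only that these letters are not in these windows.

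The abundance of the 8 transcripts fell into 3 ranges. Because 3′ reads are tied to the transcript end and not spread over its length, levels in log2 CPM were compared between genes without a length correction. In the DMSO libraries the receptor genes *Tnfrsf1b*, *Tnfrsf1a* and *Il1rl1* were the most abundant, with mean levels of 7.16 ± 0.087, 7.09 ± 0.11 and 7.0 ± 0.098 log2 CPM (SD, n = 6), higher than 87.8%, 86.7% and 85.7% of all genes. *Tnf* followed at 4.38 ± 0.17, *Il1rn* at 4.25 ± 0.36, *Il1rap* at 3.83 ± 0.42 and *Il1r1* at 3.77 ± 0.34 log2 CPM, and *Il18* was last at 1.67 ± 0.81 log2 CPM (SD, n = 6 each), higher than 0.196% of genes. The steps from *Il1rl1* down to *Tnf* (2.61 ± 0.18) and from *Il1r1* down to *Il18* (2.10 ± 0.81, SD of the log2 difference within libraries, n = 6) separated all 6 DMSO libraries without overlap. All other neighbours in this order overlapped. With thymol the same 2 steps stood, of 3.01 ± 0.47 and 1.19 ± 0.95 (SD, n = 6), with all 6 libraries in the same order, and *Il1rn* came after *Il1rap* in place of before it, again among neighbours that overlapped.

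**Figure D1:**
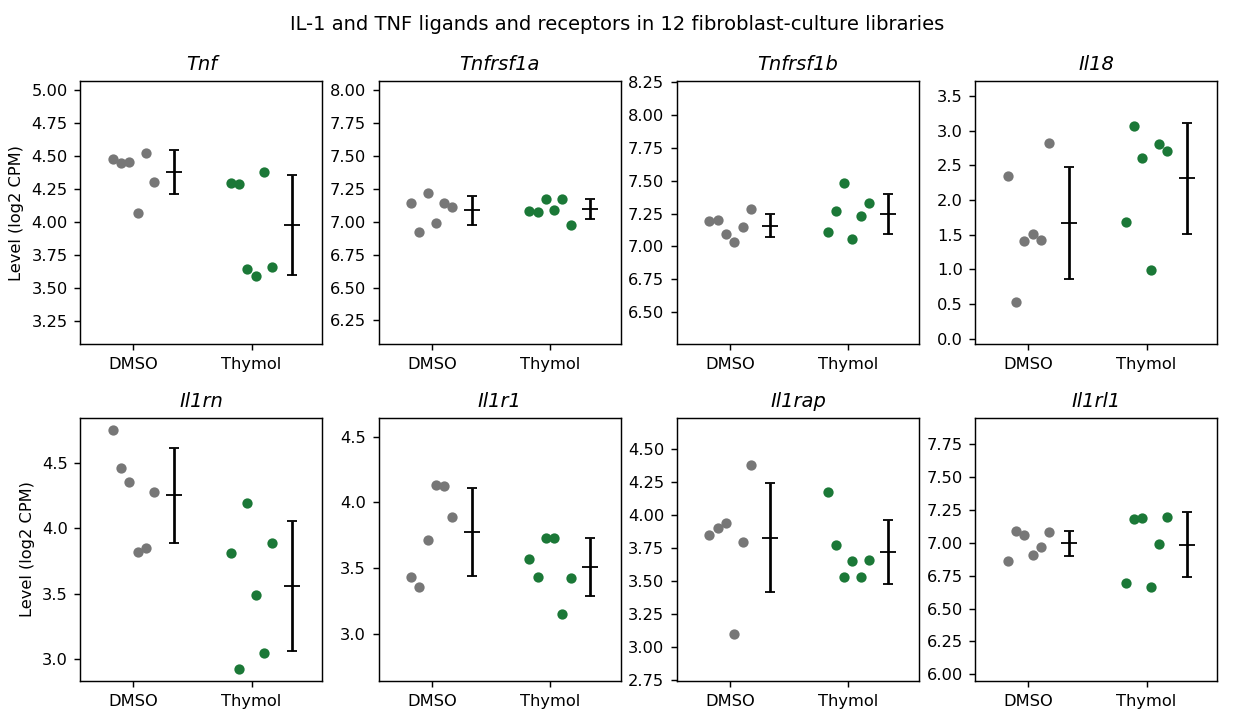
Level (log2 CPM) of each of the 8 genes in the 6 DMSO (grey) and 6 Thymol (green) libraries, drawn from left to right by library number, with the mean and SD beside each group. Each panel has its own range of levels, 2 log2 units or slightly more except for *Il18*, whose axis is longer, so heights compare within a panel. All 6 Thymol values of *Il1rn* lay below the DMSO median of 4.32 and all 6 of *Tnf* below the DMSO median of 4.45, whereas the 2 groups overlapped widely for *Tnfrsf1a* and *Tnfrsf1b*.

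The question for thymol was which of these transcripts differed from the DMSO controls. With the threshold at 0.05 for the limma p-value adjusted over the whole table, *Il1rn* was called and fell, as 1 of the 8, and 0 of the 8 were called higher. Among all 10697 genes 2.22% of genes were called, 1.57% lower and 0.654% higher. A share of 1 in 8 rests on a single gene and is no result about the group. At an unadjusted p-value under 0.05 there were 2, *Il1rn* and *Tnf*, against 11.8% of all genes, and limma's voom on the recovered reads also called *Il1rn* alone. The 2 groups were free of overlap for 0 of the 8 genes, against 1.68% of all genes. The median log2 fold change (thymol minus DMSO) was -0.059 for the 8 genes and 0.0026 for all genes, with 5 of the 8 below 0.

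*Il1rn* (ENSMUSG00000026981.15, chromosome 2, 24336853 to 24351494, plus strand, GRCm38) had levels of 3.82, 4.32 and 4.76 log2 CPM in the lowest, median and highest DMSO libraries and of 2.92, 3.65 and 4.19 log2 CPM in the Thymol libraries. In reads these were 88, 143 and 201 per library with DMSO and 43, 75.5 and 115 with thymol. All 6 Thymol libraries were below the DMSO median, 4 were below the lowest DMSO library, and the other two, replicates 3 and 6, lay within the DMSO range. The mean fell from 4.25 ± 0.36 to 3.56 ± 0.50 log2 CPM (SD over 6 libraries each). The log2 fold change was -0.70 ± 0.20 (SE, 95% interval -1.09 to -0.30, limma adjusted p = 0.039), or 0.617 of the DMSO level. The receptor antagonist is made from several start sites, which yield secreted and intracellular forms, and reads taken at the 3′ end sum over them. The 4 coding transcripts of the annotation end within 2037 bases of each other.

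The call for *Il1rn* lay close to the threshold. Leaving out each of the 12 libraries in turn, the log2 fold change stayed between -0.82 and -0.57, and the adjusted p-value passed 0.05 in 5 fits and not in 7, which were those without DMSO replicate 1 (adjusted p = 0.151), 2 (0.101), 3 (0.078) or 6 (0.076), or without Thymol replicate 2 (0.152), 4 (0.057) or 5 (0.108). The labels give no batch. In the odd-numbered libraries alone the limma log2 fold change was -0.64 (adjusted p = 0.427) and in the even-numbered ones -0.76 (adjusted p = 0.208), with 3 libraries a group in each. Over all genes 70 were called in the odd-numbered and 167 in the even-numbered libraries, against 238 in all 12. With a pseudocount of 10 before the logarithm the log2 fold change of *Il1rn* was -0.41 (limma adjusted p = 0.031), since a larger pseudocount shrinks the change of a gene with few reads.

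**Figure D2:**
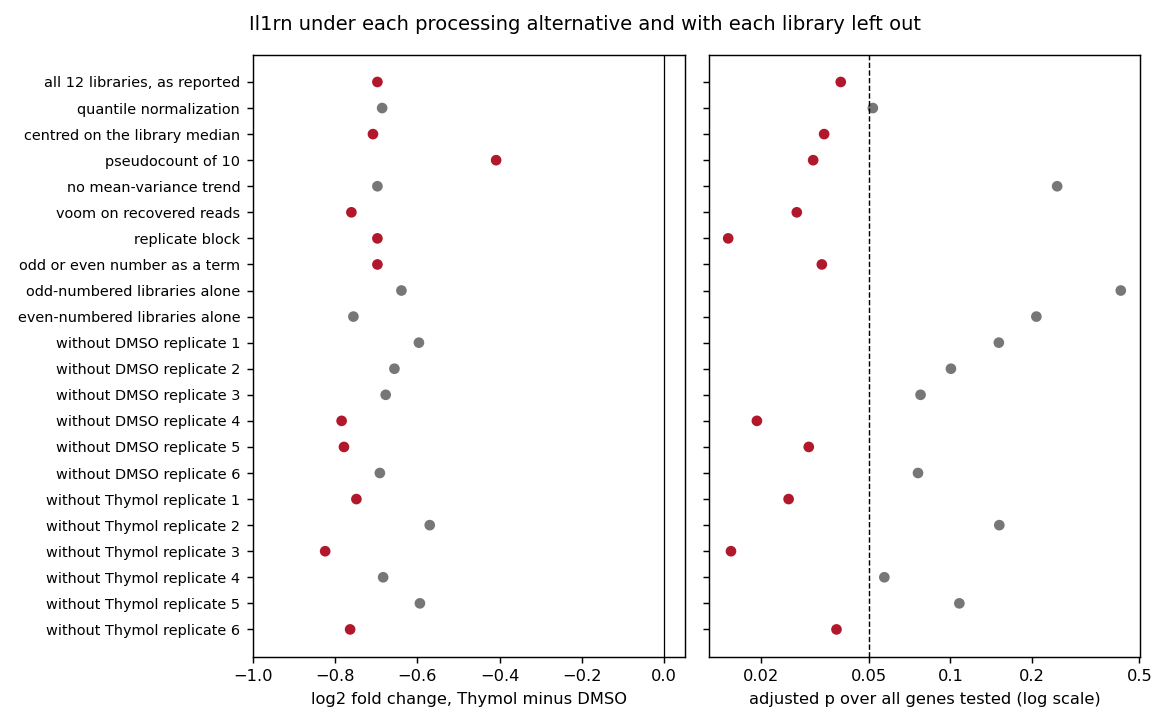
Left, log2 fold change (thymol minus DMSO) of *Il1rn* under each processing alternative and with each library left out. Right, the limma adjusted p-value of the same fit on a log axis with a dashed line at 0.05, red where it passed. Every point on the left lay below 0, between -0.82 and -0.41, while the p-values spread over both sides of the line.

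*Tnf* (ENSMUSG00000024401.14, chromosome 17, 35199381 to 35202007, minus strand) did not pass the threshold over all genes. Its DMSO libraries had levels of 4.07 (lowest), 4.45 (median) and 4.53 (highest) log2 CPM, from 110 to 174 reads. Its Thymol libraries had levels of 3.59, 3.97 and 4.38 log2 CPM, from 67 to 186 reads. Replicates 3, 4 and 6 of the Thymol group were at 3.64, 3.59 and 3.66, below every DMSO library, and replicates 1, 2 and 5 were at 4.29, 4.29 and 4.38, inside the DMSO range. The means were 4.38 ± 0.17 and 3.98 ± 0.38 log2 CPM (SD over 6 libraries each). The log2 fold change was -0.41 ± 0.16 (SE, 95% interval -0.73 to -0.076). In limma the p-value across all genes was 0.017 before and 0.259 after adjustment. The adjusted p-value lay between 0.141 and 0.464 with each library left out.

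*Il18* (chromosome 9, 50554827 to 50581840, plus strand) had the fewest reads and the widest interval. Its levels were 0.53, 1.47 and 2.83 log2 CPM in the lowest, median and highest DMSO libraries, on 8, 18 and 48 reads. With thymol they were 1.00, 2.66 and 3.07 log2 CPM, on 10, 35.5 and 61 reads. The lowest and highest libraries of each group were far apart, and only 1 Thymol library was above the highest DMSO library. With DMSO, reads reached 30 in replicates 1 and 6 (36 and 48). With thymol they did in replicates 2, 3, 5 and 6 (48, 37, 61 and 34). The authors' filter of 30 reads in 6 or more samples was thus met mainly through the Thymol group, where the mean was higher. The effect of that filter on the fold change was not tested. The log2 fold change was 0.64 ± 0.37 (SE, 95% interval -0.096 to 1.37, limma adjusted p = 0.525), so that at this depth neither a fold of 0.935 nor one of 2.59 was outside the interval. The spread between DMSO libraries was an SD of 0.81, where reads drawn at random around the mean count would give 0.27. The genes *Bco2* and *Tex12* overlap *Il18* on the opposite strand, neither had a row in the table, and the strand setting of the authors' counting is not given in the sources used here.

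Neither TNF receptor gene passed the threshold, and both intervals were narrow. *Tnfrsf1a* (chromosome 6, 125349362 to 125362484, plus strand) had levels of 6.92, 7.13 and 7.22 log2 CPM in the lowest, median and highest DMSO libraries and of 6.98, 7.09 and 7.17 with thymol, on 683 to 1308 reads. Its log2 fold change was 0.0077 (95% interval -0.13 to 0.14, limma adjusted p = 0.987), an interval of 0.915 to 1.10 in fold. *Tnfrsf1b* (chromosome 4, 145213463 to 145246870, minus strand) had levels of 7.03, 7.17 and 7.28 log2 CPM with DMSO and of 7.06, 7.25 and 7.48 with thymol, on 779 to 1359 reads. Its log2 fold change was 0.087 (95% interval -0.052 to 0.23, limma adjusted p = 0.709), and 2 Thymol libraries were above the highest DMSO library. For these abundant genes the intervals did not include a change of 1.2-fold in either direction. Within each library the level of *Tnfrsf1b* exceeded that of *Tnfrsf1a* by 0.072 ± 0.14 with DMSO and by 0.15 ± 0.16 with thymol (log2, SD, n = 6 each), a difference of 0.079 (exact two-sided permutation test, p = 0.374).

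The IL-1 receptor 1 chain and its partner were less abundant and less precisely measured. *Il1r1* (chromosome 1, 40225080 to 40317257, plus strand) had levels of 3.35, 3.80 and 4.13 log2 CPM in the lowest, median and highest DMSO libraries and of 3.15, 3.50 and 3.73 with thymol, on 57 to 115 reads. All 6 Thymol libraries lay below the DMSO median, yet only 1 lay below the lowest DMSO library. The log2 fold change was -0.27 ± 0.19 (SE, 95% interval -0.65 to 0.11, limma adjusted p = 0.649). The annotated gene *Gm38070* overlaps *Il1r1* on the same strand and had no row in the table. *Il1rap* (chromosome 16, 26581704 to 26730117, plus strand) had levels of 3.10, 3.88 and 4.39 log2 CPM with DMSO and of 3.53, 3.65 and 4.18 with thymol, so that the Thymol values lay within the DMSO range. Its log2 fold change was -0.11 ± 0.19 (SE, 95% interval -0.49 to 0.27, limma adjusted p = 0.908). It was 0.0016 without DMSO replicate 6, the library with the highest value, and -0.26 without DMSO replicate 4, the one with the lowest. *Gm20319* overlaps *Il1rap* on the opposite strand and had no row either. The annotated coding transcripts of *Il1rap* end up to 22908 bases apart. The gene is known to make membrane and secreted forms, and the table holds 1 value for all of them.

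*Il1rl1* (chromosome 1, 40429570 to 40465415, plus strand) was nearly as abundant as the TNF receptors. Its levels were 6.86, 7.02 and 7.09 log2 CPM in the lowest, median and highest DMSO libraries, on 781 to 1069 reads. In the Thymol libraries they were 6.67, 7.09 and 7.19 log2 CPM, on 593 to 1154 reads. The means were 7.0 ± 0.098 and 6.99 ± 0.25 (SD, n = 6 each), with a log2 fold change of -0.0088 ± 0.081 (SE, 95% interval -0.17 to 0.15, limma adjusted p = 0.987). The Thymol libraries were spread to both sides of the controls: replicates 1 and 4, at 6.70 and 6.67, were below every DMSO library, and 3 others were above every DMSO library. The same replicates 1 and 4 were the lowest Thymol libraries for *Il18* and for *Tnfrsf1b*. The 5 annotated coding transcripts of *Il1rl1* end up to 24008 bases apart, and the counts per gene do not tell ST2 receptor from secreted ST2. Per library the level of *Il1rl1* exceeded that of *Il1r1*, the chain for IL-1, by 3.22 ± 0.36 with DMSO and by 3.48 ± 0.38 with thymol (log2, SD, n = 6 each), a difference of 0.26 (exact two-sided permutation test, p = 0.247).

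**Figure D3:**
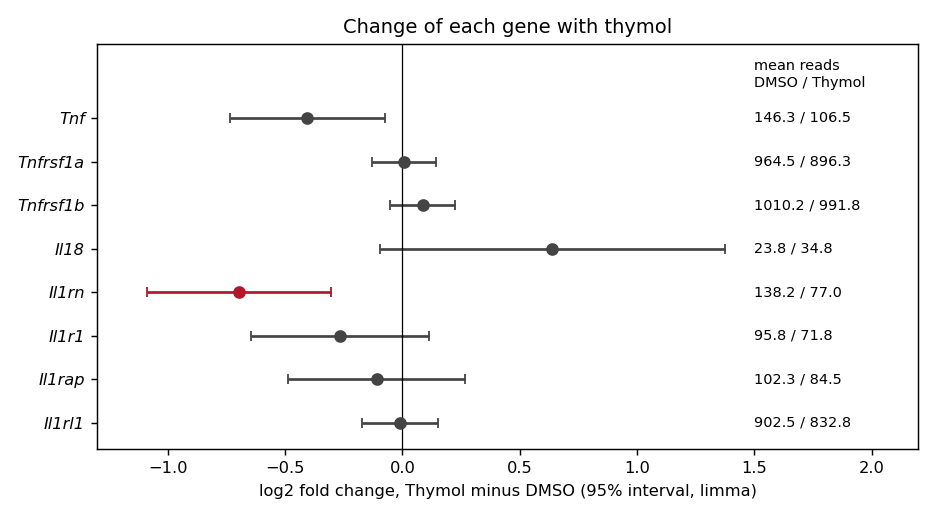
Log2 fold change (thymol minus DMSO) of each gene with its 95% interval from limma, red where the adjusted p-value passed 0.05, and the mean reads per library of the 2 groups at the right. Intervals were narrow for *Tnfrsf1a*, *Tnfrsf1b* and *Il1rl1*, with 833 to 1010 mean reads, and widest for *Il18*, with 23.8 and 34.8.

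The spread between libraries was wider than the counting of reads alone would give. For *Il1rn* the SD between libraries was 0.36 with DMSO and 0.50 with thymol, where sampling of reads alone would give 0.12 and 0.16. For *Tnf* the SD was 0.17 and 0.38 against 0.12 and 0.14, and for *Il1rl1* 0.098 and 0.25 against 0.048 and 0.050. QuantSeq reads are PCR products, so these expectations cover the counting of reads and not of molecules.

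The genes whose pattern over the 12 libraries was most like that of *Il1rn* were *Slc15a3*, *Babam2* and *Acsl3*. Likeness was the root mean square difference between 2 genes after each was centred on its mean and divided by its SD, and for these 3 it was 0.487, 0.501 and 0.509 SD, where the median over all genes with a mean of at least 3 log2 CPM was 1.36 SD. *Slc15a3* encodes a lysosomal peptide and histidine transporter and *Acsl3* a fatty acyl-CoA synthetase. *Acsl3* itself passed the threshold narrowly and was lower with thymol (log2 fold change -0.38, limma adjusted p = 0.0495). The nearer *Slc15a3* (-0.28, limma adjusted p = 0.251) and *Babam2* (-0.19, limma adjusted p = 0.478) did not pass. For *Tnf* the nearest genes were *Pon2*, *Picalm* and *Avpi1*, at 0.437, 0.478 and 0.494 SD, and none of these 3 passed the threshold (limma adjusted p of 0.420, 0.356 and 0.276). These are descriptions of 12 points with the best of many genes picked out.

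The other genes of both pathways were taken from lists written with earlier results of these data known, and most did not pass. The counts of these lists are therefore no independent evidence of a direction. Of 2 measured genes of the other 16 listed IL-1 family ligands, receptors and decoys, *Il18rap*, a chain of the IL-18 receptor, had a log2 fold change of 0.42 (limma adjusted p = 0.621) and *Il1rl2*, the IL-36 receptor, of 0.11 (adjusted p = 0.941). Of 19 measured genes of inflammasome assembly and cytokine processing, 3 passed in limma, all lower, against 1.57% of all genes in that direction. *Nlrp3*, the sensor that activates caspase-1, fell from 3.89 ± 0.47 to 2.98 ± 0.59 log2 CPM (SD over 6 libraries each), by a log2 fold change of -0.91 (limma adjusted p = 0.018). *Txnip*, a thioredoxin-binding protein, fell by 0.35 on the log2 scale (limma adjusted p = 0.00071), with all 6 Thymol libraries below every DMSO library, and *Timp3*, which inhibits the protease that releases TNF from the membrane, fell by 0.22 (limma adjusted p = 0.0043). The median of the 19 was -0.047. *Casp1* had a log2 fold change of -0.13, *Pycard*, the inflammasome adaptor, of 0.12, and *Adam17*, which encodes that protease, of 0.029, with limma adjusted p-values of 0.833, 0.826 and 0.949. The call for *Nlrp3* was lost without DMSO replicate 2 (-0.84) or 4 (-0.76) or Thymol replicate 1 (-0.77) or 4 (-0.77).

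The genes for the cytoplasmic relays were counted in 2 lists. Of 19 measured adaptors of the IL-1 and Toll-like receptors 0 passed in limma, against 2.22% of all genes, with a median of -0.038. At that share a count of 0 in 19 is no result about these adaptors. At an unadjusted p-value under 0.05 there was 1, against 11.8% of all genes, *Irak3*, an inhibitory member of the IRAK family (log2 fold change -0.62, limma adjusted p = 0.060), named after its value was seen, and voom also called 0. *Myd88* had a log2 fold change of -0.10 (limma adjusted p = 0.772). Of 28 measured TNF receptor adaptors and death regulators 2 passed, both lower, against the same 1.57% of all genes, with a median of -0.032. *Birc3*, a ubiquitin ligase of the TNF receptor complex, fell from 4.02 ± 0.25 to 3.13 ± 0.82 log2 CPM (SD over 6 libraries each), by a log2 fold change of -0.89 (limma adjusted p = 0.026). The gene also stands in the list of genes known to be induced by IL-1 or TNF, so its call is counted in both lists. *Tank*, a TRAF-binding adaptor, fell by 0.35 on the log2 scale (limma adjusted p = 0.036), with all 6 Thymol libraries below every DMSO library. *Birc3* no longer passed without DMSO replicates 2 (-0.88), 3 (-0.85), 4 (-0.86) or 6 (-0.85) or Thymol replicates 4 (-0.61) or 5 (-0.81). *Tank* no longer passed in 8 of 12 such fits, those without DMSO replicates 1 (-0.36), 2 (-0.32), 3 (-0.34), 4 (-0.34) or 6 (-0.34) or Thymol replicates 1 (-0.33), 2 (-0.31) or 5 (-0.35). *Tradd* and *Ripk1*, which bind TNFR1, had log2 fold changes of -0.041 and -0.024 (limma adjusted p of 0.963 and 0.967).

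Among other TNF superfamily genes, 0 of 4 measured ligands and 0 of 13 measured receptors passed in limma and in voom. Since limma called 2.22% of all genes, a count of 0 in lists this short is no result about these families. At an unadjusted p-value under 0.05, which 11.8% of all genes reached, there were 2 ligands, *Tnfsf15* (log2 fold change -0.31, limma adjusted p = 0.050) and *Tnfsf13b* (-0.64, adjusted p = 0.412), both named after their values were seen. There were 4 such receptors, also named afterwards: *Tnfrsf11a*, the receptor RANK (0.39), and *Tnfrsf26* (0.34) had higher values, and *Tnfrsf13b* (-0.62) and *Fas* (-0.39) lower ones, with limma adjusted p-values of 0.091, 0.121, 0.198 and 0.367. The medians were -0.42 over the 4 ligands and -0.036 over the 13 receptors.

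Of 35 measured genes known to be induced by IL-1 or TNF, 9 passed in limma, all lower, against 1.57% of all genes in that direction. The median log2 fold change was -0.22, and 25 of the 35 were below 0. Over all genes the median was 0.0026, and 5256 of 10697 were below 0. *Cxcl2*, a neutrophil chemokine, had a log2 fold change of -1.96 (limma adjusted p = 8.4e-09), and *Cebpd*, a transcription factor, of -0.38 (limma adjusted p = 0.0015). *Ptx3*, a secreted pattern-recognition protein, had a mean of 5.63 ± 0.17 in the controls and 5.02 ± 0.18 after thymol (log2 CPM, SD over 6 libraries), a change of -0.61 (limma adjusted p = 0.00020). For each of these 3 genes all 6 Thymol libraries lay below every DMSO library. In all, the 2 groups did not overlap for 8 of the 35, against 1.68% of all genes. The others of the 9 were *Il6* (-0.77), *Nfkbia* (-0.23), *Birc3* (-0.89), *Il11* (-0.51), *Bcl3* (-0.48) and *Junb* (-0.23). Their limma adjusted p-values were 0.0033, 0.018, 0.026, 0.034, 0.036 and 0.041. This list, like the others, was written with earlier results of these data known, and its count is no independent evidence of its direction. The count was 3 without the mean-variance trend, where 57 genes of the whole table were called, against 238 with the trend. With each library left out the count of these induced genes lay between 5 and 9 in the lower direction. It was 5 without DMSO replicate 1 or 2, and 6 without DMSO replicates 3, 4 or 6 or Thymol replicate 6. In addition 1 of these genes was called higher without Thymol replicate 4, and 1 without Thymol replicate 5. *Ccl2* (-0.10), *Ptgs2* (-0.029) and *Icam1* (0.068), also on this list and chosen for mention after their values were seen, did not pass (limma adjusted p of 0.649, 0.923 and 0.913).

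**Figure D4:**
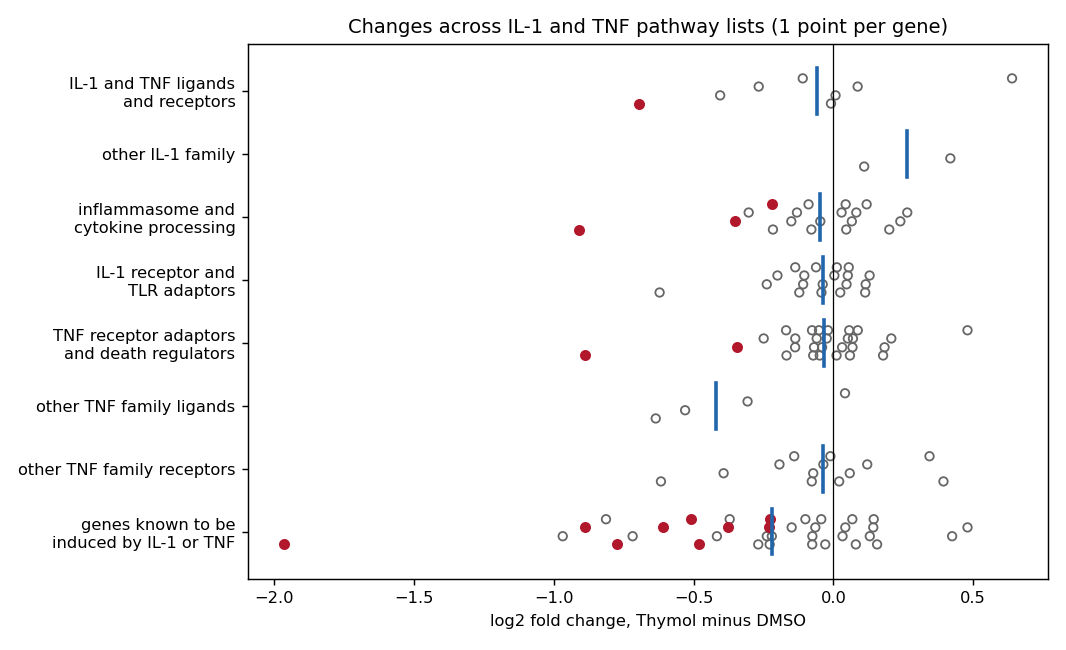
Log2 fold change (thymol minus DMSO) of each measured gene in the 8 ligands and receptors and in 7 further lists of the IL-1 and TNF pathways, 1 point per gene, filled red where the limma adjusted p-value passed 0.05, with a blue bar at the list's median. The filled points all lie below 0, with *Cxcl2* at -1.96 farthest out, and the lists of adaptors centre near 0.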

How the data were processed

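QuantSeq libraries, 12 in all, of MAFs were compared, 6 Thymol against 6 DMSO. The authors aligned reads to GRCm38 with STAR 2.5.3, counted them per gene with HTSeq 0.6.1, filtered genes at a minimum of 30 reads in 6 or more samples (98.0% of rows met this in the recovered reads), applied TMM scaling and deposited log2 CPM values with a prior count added. The deposited values were log2 and not counts, so a log2 test was chosen and the authors' test (edgeR) was not rerun, also not on the recovered reads. All 12 log2 columns were fitted over 10697 genes with limma 3.58.1 in R 4.3.3 (lmFit, then eBayes with trend, group as the sole term), with two-sided p-values adjusted by Benjamini-Hochberg. The fit was tested on simulated data in which all genes shared the same spread beyond counting, so that test cannot judge the choice of variance model. Whole reads were recovered from equal steps in the back-transformed values (100% of values under 200 reads within 0.02 of a whole number), and the prior was 1.96 reads in an average library. They served for depth, counting error and voom. The most similar pair of libraries in a group still differed by a chi-square of 4.19 per degree of freedom. Same-numbered libraries of both groups deviated together (correlation over 0.1) in 2 of 6 pairs, so numbers were not used to pair. Genes and lists were chosen with earlier results of these data known. The rule named all 8 genes, up to 3 passing genes per list, genes behind counts of 5 or fewer, and the nearest genes of those passing and of *Tnf*. *Casp1*, *Pycard*, *Adam17*, *Myd88*, *Tradd*, *Ripk1*, *Ccl2*, *Ptgs2*, *Icam1*, *Il6*, *Nfkbia*, *Il11*, *Bcl3* and *Junb* fall outside it and were chosen after their values were seen. The planned difference of *Il1rn* and *Il1b* could not be computed. Exact permutation tests used all 924 relabellings. Alternatives covered scaling, pseudocount, filter, variance model, library number and each library left out. Gene positions are from GENCODE vM21 on GRCm38.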

Additional observations from a re-analysis of the deposited data

Results flagged for a closer look

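Single libraries that stood apart from the other 5 of their group were sought with Dixon's test at its 95% limit, and 3 of 42 sets of 6 values held one. Chance gives about 1 in 20, or 2.1 of 42. None of the 8 ligand and receptor genes held such a library. The depth of Thymol replicate 5, at 9049796 reads, stood apart from 6585162 in the library nearest to it, and without it the log2 fold change of *Il1rn* was -0.59 (limma adjusted p = 0.108). Thymol replicate 1 had the highest mean macrophage marker level of its group, 8.48 log2 CPM against 8.39 in the next, and the lowest *Txnip* level, 7.19 against 7.49. Without it the log2 fold change of *Il1rn* was -0.75 (limma adjusted p = 0.025) and that of *Txnip* was -0.29, still past the threshold.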

How the results depend on the processing

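*Il1rn* was below 0 under every alternative run, between -0.82 and -0.41. It was the single gene of the 8 to pass in limma, and the count of passing genes was 0 with quantile normalization (*Il1rn* at -0.69, adjusted p = 0.052), without the mean-variance trend (-0.70, adjusted p = 0.248), in the odd-numbered (-0.64) and in the even-numbered libraries alone (-0.76), and 0 to 1 with 1 library left out (-0.82 to -0.57). It was also 0 where genes needed a mean of at least 4 log2 CPM, since that leaves 4 of the 8 and removes *Il1rn*, *Il1r1*, *Il1rap* and *Il18*. Values near 0 changed sign without passing: *Il1rl1* was 0.00022 with quantile normalization, *Tnfrsf1a* was -0.0032 with libraries centred on their median and -0.023 in the odd-numbered libraries, and with 1 library left out *Il1rl1* ranged from -0.050 to 0.055, *Tnfrsf1a* from -0.026 to 0.034 and *Il1rap* from -0.26 to 0.0016. Without the trend 0 of the inflammasome genes, 0 of the TNF receptor adaptors and 3 of the induced genes passed. Of the induced genes 2 were lower in the odd-numbered libraries alone, and 5 lower and 1 higher in the even-numbered ones. Calls over all genes fell as well, from 238 to 57 without the trend, to 70 in the odd-numbered libraries and to 167 in the even-numbered ones. With a pseudocount of 10, 1 adaptor (*Irak3*) and 1 ligand (*Tnfsf15*) passed. With the label number as a replicate block, *Il1rn* kept its value of -0.70 (adjusted p = 0.015), 1 ligand (*Tnfsf15*) passed, and no other of the 8 genes changed its call. The number of passing genes in each of the other lists was unchanged by the block, and whether they were the same genes was not compared. Over all genes 332 were called with the block, against 238 without it. Only Thymol replicates 3 and 4 correlated best with the DMSO library of their own number. Such weak correlations cannot tell whether the numbers pair the samples, and the labels do not say. For both differences between receptor levels no alternative run passed. The cause of the lost calls was not tested. Depth limits *Il18* most, at 8 to 61 reads.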

Other observations

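Of the genes of the IL-1 receptor cluster on chromosome 1, 4 on the plus strand had rows in the table: *Il1r1* (40225080 to 40317257), *Il1rl2* (40324610 to 40367562), *Il1rl1* (40429570 to 40465415) and *Il18rap* (40515362 to 40551705). *Il18r1*, which lies between the last pair, was not analysed here. The mean levels with DMSO were 3.77 log2 CPM for *Il1r1*, 2.56 for *Il1rl2*, 7.0 for *Il1rl1* and 2.18 for *Il18rap*, so that *Il1rl1* had the highest level of these 4. None of the 4 passed the limma threshold with thymol, which 2.22% of all genes did. Their log2 fold changes were -0.27, 0.11, -0.0088 and 0.42.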
